A study of Caenorhabditis elegans with 40 samples.

Results

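The genes described here are the C-type lectin (clec) genes of Caenorhabditis elegans. They were taken as all genes whose symbol starts with clec- in the WBcel235 annotation and that had 10 or more reads in at least 20 of the 40 samples. By this rule 116 of the 237 clec genes in the summed read table were kept, which was 0.83% of the 13982 genes of the series that met the same read minimum. Of the 121 clec genes left out, 14 had no read in any sample. The rule used neither a group nor a fold change, but a gene read in fewer than 20 samples could not be tested. A gene with reads only in the SCC-1 and double cleavage samples, for instance, could not become a member. The member nearest to the minimum was clec-242, with 10 or more reads in 20 samples, and the nearest gene left out was clec-126, with 18.

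C-type lectin-like domain proteins share a fold that was first described in lectins that bind sugars with the help of calcium, although many family members lack the residues that hold the calcium. The family is greatly expanded in nematodes. Many C. elegans members carry a signal peptide, many are transcribed in the intestine, and many change when the animal feeds on pathogenic bacteria, so that several of them serve as reporters of the p38 MAP kinase PMK-1 and of other immune pathways. Many lie in tandem arrays on the autosome arms.

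RNA was sequenced from whole synchronised L3 larvae after a protein subunit of an SMC (structural maintenance of chromosomes) complex had been cut or degraded. Every strain of the series, controls included, carried the TEV protease under the heat shock promoter of hsp-16.2, so every group had the same heat shock of 30 min at 34 °C in L1 and was grown for 19 h at 22 °C afterwards. In cleavage strains the target protein carried a site for this protease. In degron strains SDC-3, which brings the dosage compensation complex to the X chromosome, carried an auxin-inducible degron, and the plant F-box protein TIR1 was made from the broadly active eft-3 promoter.

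In batch 1 the cleaved proteins were DPY-26 (a subunit of condensin I and of the dosage compensation condensin), KLE-2 (condensin II) and SCC-1 (the mitotic cohesin kleisin), with 4 samples each, and 4 TEV control samples served as reference. Batch 2 held 3 samples each of cleavage of both SCC-1 and COH-1, of cleavage of COH-1 (the interphase cohesin kleisin) alone, and of TEV control. Batch 3 held 3 samples each of DPY-26 cleavage with the SDC-3 degron, TIR1 and 1 mM auxin, of the TEV TIR1 control with auxin, and of the TEV control with auxin but without TIR1. Batch 4 held 3 samples of the SDC-3 degron strain, which has TIR1 and uncut DPY-26, with 1 mM auxin and 3 of the same strain without auxin. The series' description calls the samples biological replicates.

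Each sample had between 20460404 and 88427247 estimated reads in its quantification tables. The RNA of a gene whose protein was cut or degraded checks no label here, since both act on the protein. KLE-2 cleavage replicate 3 stood apart from its group, with a mean correlation of 0.95 to the other KLE-2 samples, the highest summed level of the 116 members in the series (4312 CPM, reads scaled to library size as described below) and 10140 CPM over 9 intestinal marker genes.

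Levels between genes were compared in TPM (transcript abundance scaled to a fixed total), which corrects for transcript length. The median over the 116 members of the mean TPM was 4.05, with 3 members at 100 TPM or more and 28 below 1 TPM. The 10 most abundant members held 60.1% of the summed TPM of the family. The highest was clec-63 (chromosome II, 12895638 to 12897446), with a mean of 581.3 TPM and 371.5 to 868.3 TPM over the 40 samples. It was followed by clec-50 with a mean of 185.4 TPM and clec-1 with 163.7 TPM, and then by clec-41, clec-83, clec-180, clec-265, clec-72, clec-150 and clec-84 with means of 36.7 to 57.5 TPM. The members lay on all 6 chromosomes, with 46 on chromosome V, 32 on chromosome IV, 22 on chromosome II, 8 on chromosome I, 5 on chromosome III and 3 on the X chromosome. Of the 116 members, 71 lay in a cluster of clec genes with gaps of at most 5 kb.

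Values per sample are given below as CPM, reads scaled to a fixed library size with TMM factors over the 40 samples, in the order of replicates 1 to 3 or 4. For each comparison the quasi-likelihood test of edgeR was run on the groups compared, and a gene was called higher or lower at a Benjamini-Hochberg adjusted p under 0.05 over all 13982 genes. In whole larvae, a lower level can come from fewer cells of a type or from less RNA per cell, and these cannot be told apart. Over 8 comparisons with a control, 79 members were called in at least 1, 35 of them in exactly 1, and 37 in none. The 5 members called in 4 comparisons were clec-265, clec-230, clec-229, clec-7 and clec-3.

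**Figure D1:**
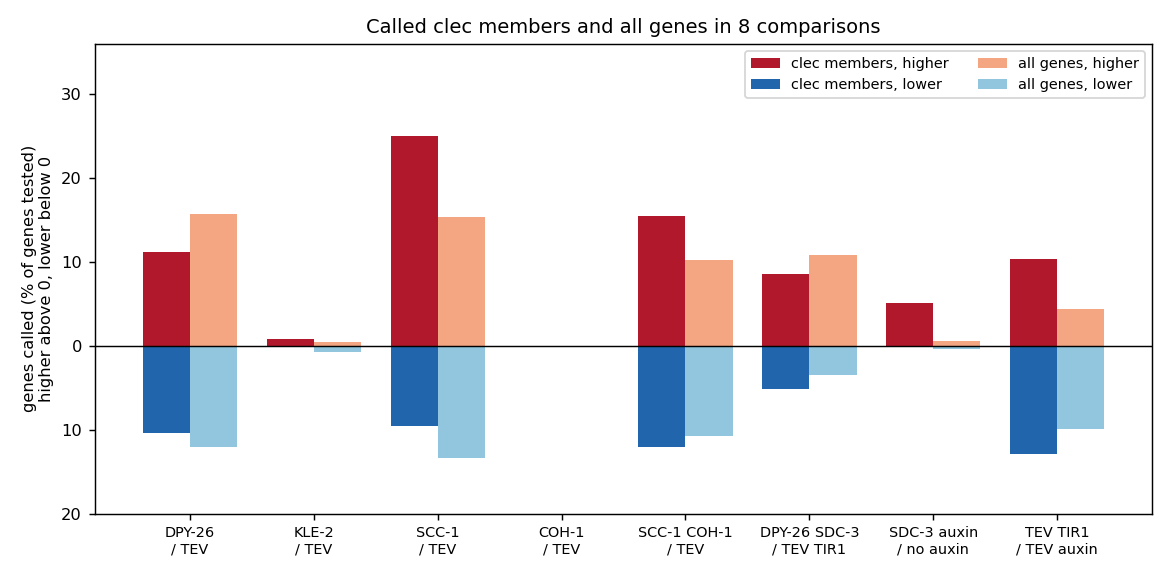
Share of genes called in each of 8 comparisons, in percent of genes tested, with genes called higher drawn above 0 and genes called lower drawn below 0. Dark bars are the 116 clec members and pale bars are all 13982 genes, and in SCC-1 cleavage 29 members were called higher and 11 lower.

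DPY-26 cleavage asked how the loss of condensin I and of the dosage compensation condensin from larval chromosomes changed the RNA of each gene. Of the 116 members, 25 were called, 13 higher and 12 lower, against TEV control. Among all genes tested, 27.8% were called (15.7% higher and 12.1% lower), which was above the 21.6% of the members. Among autosomal genes, however, 5.86% were called higher and 14.3% lower. All but 3 members are autosomal, and of these 3 X-linked members 1 was called higher and 1 lower. The groups did not overlap in 21 members, 18.1% of them, beside 30.2% of all genes. The median log2 fold change was -0.08 over the members and -0.01 over all genes. It moved with single libraries, between -0.18 without DPY-26 replicate 4 and 0.004 without DPY-26 replicate 2. Without TEV control replicate 1, 2 or 4, or without DPY-26 replicate 1 or 3, between 13 and 16 members were called, and without DPY-26 replicate 4, 34 were. With scaling factors taken from autosomal genes the split was 15 higher and 8 lower, against 13 and 12.

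The member with the smallest p-value in this comparison was clec-41 (chromosome V, 13134903 to 13138101), a lectin gene known from infection with Bacillus thuringiensis. It had 194, 233, 207 and 208 CPM in DPY-26 cleavage, against 77.0, 92.8, 96.9 and 86.7 CPM in TEV control. Every cleavage sample lay above every control sample. The log2 fold change was 1.25 with a standard error of 0.09 (edgeR adjusted p = 0.000179).

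The X-linked member clec-265 (X, 3031783 to 3033117) had 65.3, 81.8, 63.5 and 98.7 CPM in DPY-26 cleavage, against 24.4, 25.7, 24.6 and 28.2 CPM in TEV control. The groups were again apart, with a log2 fold change of 1.59 (SE 0.14, edgeR adjusted p = 0.000364). The X chromosome as a whole was higher here, with 69.4% of 2161 X-linked genes called higher, 11 called lower, and a median log2 fold change of 0.61. Among the 11 was another member, clec-86 (X, 7139875 to 7140566), which had 2.28, 2.63, 2.92 and 3.35 CPM in DPY-26 cleavage, against 5.40, 7.48, 6.63 and 9.70 CPM in TEV control. Its log2 fold change was -1.38 (SE 0.19, edgeR adjusted p = 0.00162), and it overlaps alh-10, an aldehyde dehydrogenase gene, on the opposite strand. The remaining X-linked member, clec-266 (X, 6617393 to 6622915), overlaps kqt-1, a potassium channel gene, on the opposite strand. It did not pass the test in any of the 8 comparisons, and in this one its log2 fold change was 0.48 with a standard error of 0.32.

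The neighbours clec-67 (3922165 to 3925039) and clec-70 (3932708 to 3936307) on chromosome IV were called higher as well. For clec-67, a reporter of the PMK-1 pathway, the samples read 20.1, 38.6, 21.6 and 32.6 CPM in DPY-26 cleavage, against 5.23, 14.5, 11.8 and 11.1 CPM in TEV control, with no overlap. The log2 fold change was 1.40 (SE 0.32, edgeR adjusted p = 0.0135). For clec-70 they read 5.13, 2.22, 6.13 and 5.69 CPM in DPY-26 cleavage, against 1.03, 0.974, 2.29 and 1.99 CPM in TEV control, so DPY-26 replicate 2 lay within the control range. Its log2 fold change was 1.59 (SE 0.38, edgeR adjusted p = 0.0158). The adjacent genes clec-245 and clec-246 on chromosome V were higher by 1.46 and 1.05 on the log2 scale.

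Among the members called lower, clec-209 had 8.61, 15.3, 12.1 and 6.31 CPM in DPY-26 cleavage, against 38.03, 29.9, 31.8 and 14.5 CPM in TEV control. Control replicate 4 lay within the range of the cleavage samples (log2 fold change -1.43, SE 0.34, edgeR adjusted p = 0.0158). The members clec-205, clec-204, clec-47 and clec-3 were lower by 1.28, 1.14, 0.92 and 0.89 on the log2 scale. In clec-170 the change was smaller, and its samples did not overlap, with 13.6, 10.8, 14.4 and 15.9 CPM in DPY-26 cleavage against 21.4, 21.2, 20.1 and 24.9 CPM in TEV control (log2 fold change -0.68, SE 0.12, edgeR adjusted p = 0.00522). The 10 members clec-209, clec-86, clec-204, clec-160, clec-170, clec-41, clec-43, clec-67, clec-265 and clec-70 passed whichever single library was left out.

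Of 14 clec genes listed from general knowledge of infection studies, 13 were tested. In DPY-26 cleavage 4 of them were higher (clec-4, clec-41, clec-67 and clec-70) and 2 lower (clec-49 and clec-86), with a median log2 fold change of 0.09. The summed level of all 14 was 311.6 to 387.8 CPM in DPY-26 cleavage, against 169.1 to 221.5 CPM in TEV control. Over the 13 tested, the group means of the sum differed by 147.4 CPM, of which 122.2 CPM came from clec-41. Without clec-41 the sum of the tested genes was 117.2 to 179.5 CPM in DPY-26 cleavage, against 91.8 to 130.4 CPM in TEV control. Of 16 regulators of intestinal immune genes, 3 were higher and 1 lower. The higher ones were bar-1, a beta-catenin, by 0.67 on the log2 scale, the MAP kinase kinase gene sek-1 by 0.52, both X-linked, and the phosphatase gene vhp-1 by 0.43, while the transcription factor gene atf-7 was at -0.35. Of 9 intestinal marker genes, the gut esterase ges-1 was lower (-0.44) and the others did not pass. The markers' summed level was 4321 to 5939 CPM in DPY-26 cleavage, against 5064 to 5253 CPM in TEV control. Of 3 muscle markers, unc-15 (-0.36) and unc-54 (-0.45) were lower, with a summed level of 5576 to 7693 CPM in DPY-26 cleavage, against 7965 to 9151 CPM in TEV control, and of 5 neuronal markers unc-13 was lower. Of 8 moult and epidermis markers, nas-37, a metalloprotease gene that acts in moulting, was higher (1.25), with a summed level of 2358 to 4635 CPM in DPY-26 cleavage, against 2976 to 4623 CPM in TEV control. Of 7 germline markers the Notch receptor gene glp-1 was lower (-0.28), with a summed level of 355.2 to 400.2 CPM in DPY-26 cleavage, against 372.5 to 413.9 CPM in TEV control. The part of the X chromosome or of these cell types in the members' values was not tested.

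**Figure D2:**
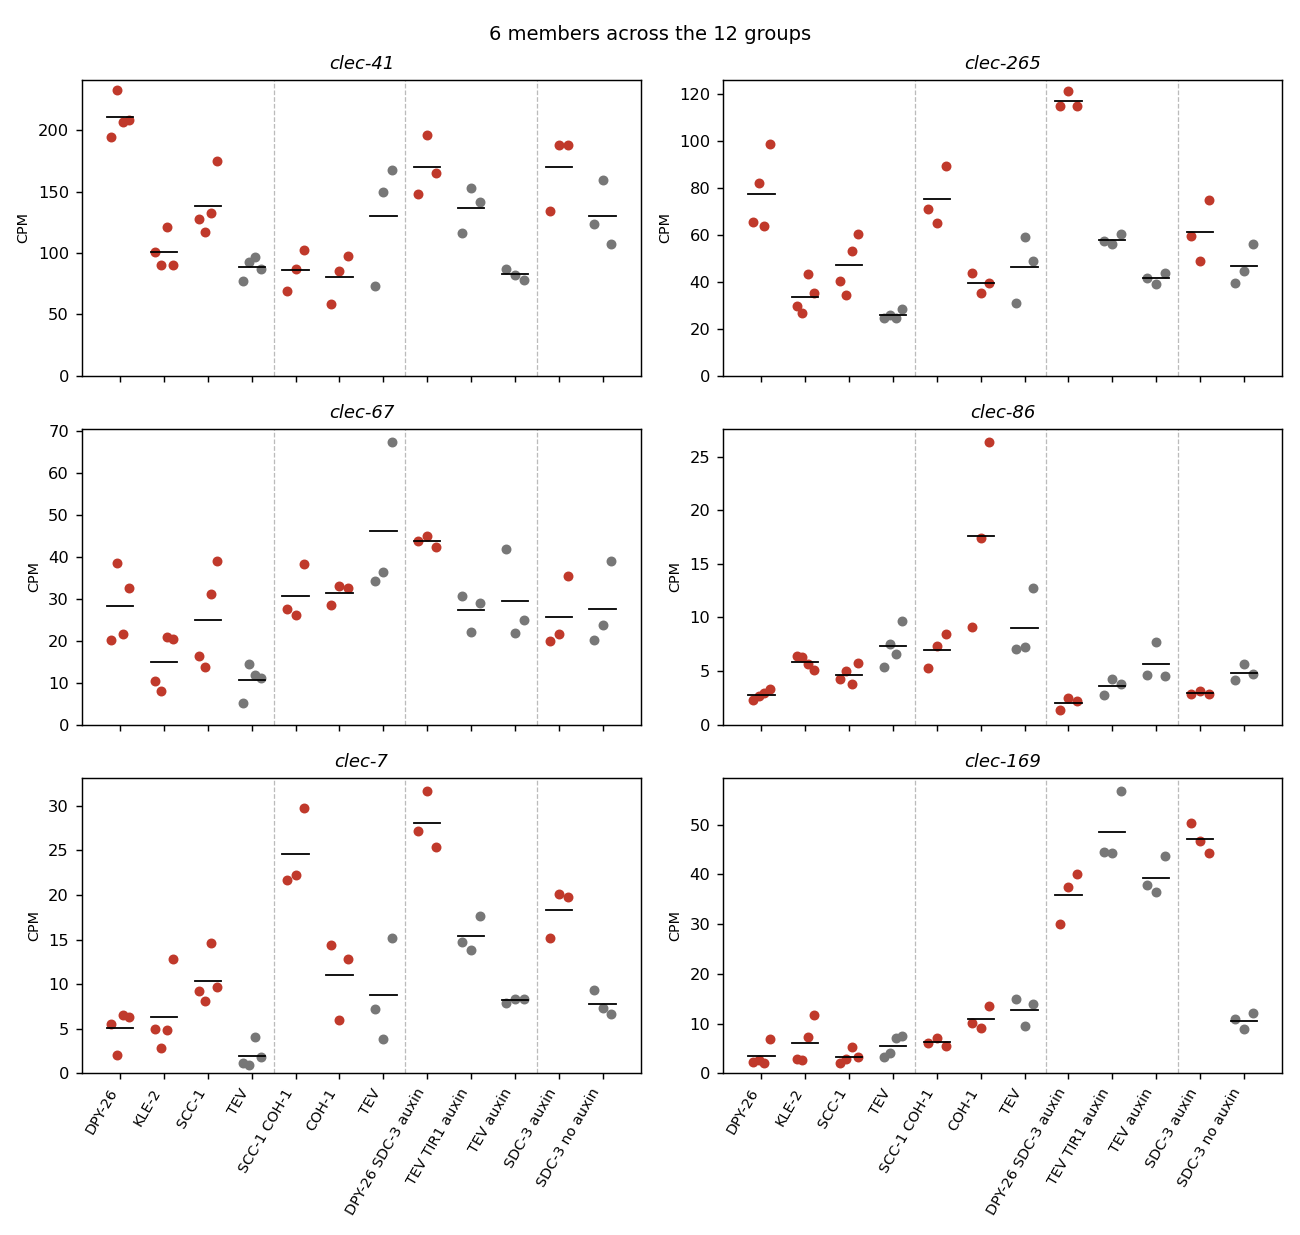
CPM of clec-41, clec-265, clec-67, clec-86, clec-7 and clec-169 in each sample of the 12 groups, on linear axes that start at 0. Red points are cleavage groups and SDC-3 degron groups with auxin, grey points are control groups, horizontal lines are group means and dashed lines separate the 4 batches. In clec-265 the 3 samples of DPY-26 cleavage with the SDC-3 degron sit at 115 to 121 CPM, above all other samples.

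The same X-linked and chromosome IV members could be followed in batch 3, in other samples, where DPY-26 cleavage was combined with the SDC-3 degron and auxin and set against the TEV TIR1 control with auxin. Here 16 members were called, 10 higher and 6 lower, beside 14.3% of all genes (10.8% higher and 3.48% lower). The members' share was 13.8%. Of autosomal genes 3.91% were called higher and 4.08% lower, and of the 3 X-linked members 1 was called higher. In 35 members the groups did not overlap, 30.2% of them beside 36.3% of all genes. Their median log2 fold change was 0.07, against -0.03 over all genes, and it was 0.03 without TIR1 control replicate 2. Leaving out the combined group's replicate 2 or 3, or TIR1 control replicate 2, left 7 called members. With scaling factors from autosomal genes the split was 14 higher and 5 lower.

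The X-linked clec-265 had 115, 121 and 115 CPM in DPY-26 cleavage with the SDC-3 degron, against 57.3, 55.8 and 60.1 CPM in the TIR1 control. Its log2 fold change was 1.02 (SE 0.09, edgeR adjusted p = 0.0015). Among X-linked genes 48.7% were called higher in this comparison, with a median log2 fold change of 0.57. The X-linked clec-86 had 1.36, 2.46 and 2.19 CPM in the combined group, against 2.77, 4.22 and 3.80 CPM in the TIR1 control. These samples did not overlap, but the change of -0.85 did not pass the test (edgeR adjusted p = 0.0748).

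On chromosome IV, clec-67 stood at 43.9, 44.95 and 42.3 CPM in the combined group, against 30.6, 22.1 and 29.0 CPM in the TIR1 control (log2 fold change 0.68, SE 0.13, edgeR adjusted p = 0.0148). Its neighbour clec-70 stood at 8.46, 8.78 and 7.86 CPM in the combined group, against 0.888, 0.439 and 3.88 CPM in the TIR1 control (log2 fold change 2.37, SE 0.63, edgeR adjusted p = 0.0435). Without TIR1 control replicate 3 the change of clec-70 was 3.54, and its call was lost without any other library of the comparison. With clec-72, 3 of the 5 members in this cluster were called higher, and all 5 had a log2 fold change above 0. Of all members 56.9% were above 0 in this comparison, and of all genes 47.0%. In the TIR1 control itself this cluster was low, with 2 of the 5 called lower than in the TEV auxin control, 1 of 5 above 0 and a median log2 fold change of -1.14. The members called lower in the combined group were clec-47 (-1.38), clec-185 (-1.25), clec-206 (-1.01), clec-170, clec-85 and clec-186.

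DPY-26 cleavage in batch 1 and the combined group in batch 3 have no sample in common. Of the 13 members called higher in DPY-26 cleavage and the 10 called higher in the combined group, 3 were shared (clec-265, clec-67 and clec-70), which was 23.1% and 30% of the lists. Of 12 and 6 called lower, 2 were shared (clec-170 and clec-47), 16.7% and 33.3% of the lists. Shared calls were not counted over all genes, so these shares have no background. The infection list had 4 higher and 1 lower in the combined group, with a summed level of 414 to 476.5 CPM, against 317.7 to 351.4 CPM in the TIR1 control. Of the immune regulators, bar-1 (0.46) and sek-1 (0.48) were higher, both on the X chromosome. Of 5 pharynx markers the myosin gene myo-2 was higher (0.66), with a summed level of 816.6 to 1008 CPM in the combined group, against 509.4 to 706.8 CPM in the TIR1 control, and of 9 intestinal markers the peptide transporter gene pept-1 was higher (0.50). Their part in the members' values was not tested.

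SDC-3 degradation without cleavage of DPY-26 was compared in batch 4. With auxin 6 members were called higher than without it and none lower by edgeR, beside 1.02% of all genes (0.651% higher and 0.372% lower). At an unadjusted p under 0.05, 28 were higher and 11 lower, which was 33.6% of the members beside 21.9% of all genes, and DESeq2 called 16, beside 11.3% of all genes by that tool. Blocking on replicate number, which the pairing check allowed in this batch, gave 14 called members, 10 higher and 4 lower, the 6 among them, beside 7.12% of all genes in the same fit. The count rested on single libraries, since no member was called without auxin replicate 1 or 3 or without no-auxin replicate 1 or 2, 8 were called without auxin replicate 2, and 12 without no-auxin replicate 3. None of 7 germline and none of 8 moult and epidermis markers passed here, while the germline markers summed to 210.4 to 282.2 CPM with auxin, against 308.6 to 373.5 CPM without, and the moult and epidermis markers to 1351 to 3727 CPM with auxin, against 5705 to 6624 CPM without. Both sums were apart between the groups, and their part in the members' values was not tested.

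The called member with the largest fold change was clec-210 (chromosome V, 3118377 to 3120323), which overlaps srt-56, a chemoreceptor gene, on the opposite strand. It had 9.45, 10.3 and 6.37 CPM with auxin, against 1.61, 1.61 and 1.33 CPM without auxin (log2 fold change 2.52, SE 0.25, edgeR adjusted p = 0.0138). From 1 cluster on chromosome IV, clec-167 and clec-169 (1261324 to 1264622) were also higher. For clec-169 the samples had 50.4, 46.8 and 44.3 CPM with auxin, against 10.8, 8.87 and 12.2 CPM without it, which were far apart (log2 fold change 2.15, SE 0.15, edgeR adjusted p = 0.0138). The others were clec-167 (2.37), clec-206 (1.82), clec-76 (1.46) and clec-7 (1.23).

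The degron groups of this batch differ in auxin and in SDC-3 at the same time, and these cannot be told apart within it. In batch 3, the level of clec-169 was 37.9, 36.5 and 43.6 CPM in the TEV control with auxin and 44.5, 44.2 and 56.7 CPM in the TEV TIR1 control with auxin, groups that carry no degron. In the combined group clec-169 was at 30.0, 37.4 and 40.2 CPM. Over the series the 12 samples with auxin spanned 30.0 to 56.7 CPM and the 28 samples without auxin 2.01 to 14.96 CPM. For clec-210 the 12 samples with auxin spanned 3.29 to 10.3 CPM, and the 28 without auxin reached 2.69 CPM. Of the other members clec-57 was apart in the same way, with 34.8 to 50.9 CPM in samples with auxin, against 16.2 to 28.8 CPM in samples without. These 3 stood among 5 genes of all 13982 (0.0358%) whose samples were apart in this way. This split was looked for after the values of clec-169 had been seen, and 3 of the 4 auxin groups were in batch 3, where no sample lacked auxin, so that batch, auxin and loss of SDC-3 cannot be told apart in these levels.

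SCC-1 cleavage, which removes the mitotic form of cohesin, gave the largest count among the comparisons. Of the 116 members 40 were called against TEV control, 29 higher and 11 lower. Among all genes 28.7% were called (15.4% higher and 13.3% lower), against 34.5% of the members. The groups did not overlap in 36 members, 31.0% of them, beside 32.1% of all genes, and the median log2 fold change was 0.28 over the members and 0.04 over all genes. Without SCC-1 replicate 3 the members' median was 0.16. The summed level of the family was 3085 to 3581 CPM in SCC-1 cleavage, against 2194 to 2713 CPM in TEV control, without overlap. The most abundant members weigh most in this sum. Without TEV control replicate 2, 25 members were called.

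The member that rose most was clec-146 (chromosome II, 13590641 to 13593774). It had 23.5, 15.3, 20.7 and 10.9 CPM in SCC-1 cleavage, against 2.07, 1.14, 4.29 and 2.502 CPM in TEV control, with the groups apart (log2 fold change 2.80, SE 0.39, edgeR adjusted p = 0.00124). The chromosome V gene clec-7 (7328392 to 7330002) followed, with 9.23, 8.14, 14.6 and 9.72 CPM in SCC-1 cleavage, against 1.23, 0.911, 4.07 and 1.82 CPM in TEV control (log2 fold change 2.36, SE 0.43, edgeR adjusted p = 0.00438), and without TEV control replicate 3 the change was 2.97. In clec-209, which was lower in DPY-26 cleavage, the values were 115, 75.5, 62.5 and 107 CPM in SCC-1 cleavage, against 38.03, 29.9, 31.8 and 14.5 CPM in TEV control (log2 fold change 1.66, SE 0.30, edgeR adjusted p = 0.00434). Both comparisons used the same 4 control samples.

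Further members called higher were clec-67 (1.23), clec-3 (1.22), clec-247 (1.07), clec-180 (1.01), clec-5 (0.99) and clec-265 (0.87). The most abundant member of the family, clec-63, was higher by 0.46 on the log2 scale (SE 0.09), with 1150 ± 118 CPM in SCC-1 cleavage and 834.9 ± 69.0 CPM in TEV control (SD, n = 4 each). The summed level of the family had group means of 3291 and 2436 CPM, so clec-63 alone made up a part of its rise. The 4 neighbours of clec-63 on chromosome II, clec-62 and clec-64 to clec-66, had log2 fold changes above 0 as well, of which clec-62 was called. Of all members 69.0% were above 0 in SCC-1 cleavage, and of all genes 56.1%.

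In SCC-1 cleavage 6 members were lower by more than 2 on the log2 scale. Their mean levels were 0.673 to 1.42 TPM in 5 of them and 33.9 TPM in clec-230. They were clec-229 (chromosome V, 15340006 to 15341504), clec-230 (V, 15347847 to 15349144), clec-238 (V, 16951804 to 16953629), clec-242 (V, 17243598 to 17245506), clec-21 (II, 1582876 to 1584240) and clec-144 (II, 11831062 to 11832575). For clec-229 there were 2, 6, 5 and 12 reads in SCC-1 cleavage, against 117, 126, 220 and 116 reads in TEV control (log2 fold change -4.33, SE 0.41, edgeR adjusted p = 0.000242). The most abundant of them, clec-230, had 1.69, 7.54, 2.64 and 6.68 CPM in SCC-1 cleavage, against 29.8, 43.2, 39.2 and 29.7 CPM in TEV control (log2 fold change -2.95, SE 0.44, edgeR adjusted p = 0.00161). For clec-238 the values were 0.253, 0.830, 0.282 and 0.440 CPM in SCC-1 cleavage, against 4.17, 4.26, 3.59 and 5.07 CPM in TEV control. In each of the 6 genes every SCC-1 cleavage sample lay below every control sample. The read minimum was met by clec-242, clec-144, clec-21 and clec-229 in 20, 23, 26 and 26 of the 40 samples. In SCC-1 cleavage clec-242 had 0, 6, 11 and 8 reads, against 32, 59, 42 and 45 in TEV control. Such genes passed the minimum largely through groups where they were high. Genes with the opposite pattern could be left out, so the number of strongly lower members depends in part on the minimum. The summed level of the 6 was 2.28 to 10.1 CPM in SCC-1 cleavage, against 41.1 to 55.7 CPM in TEV control. In the same batch it was 7.22 to 46.8 CPM in KLE-2 cleavage, with a median of 23.6 CPM. In DPY-26 cleavage it was 50.9 to 109.4 CPM.

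Moult and epidermis markers changed in both directions. Of 8 moult and epidermis marker genes, 4 were called higher and 2 lower in SCC-1 cleavage, with a median log2 fold change of 0.56 and a summed level of 3029 to 5842 CPM, against 2976 to 4623 CPM in TEV control. The 4 higher ones were dpy-7, elt-3, mlt-11 and noah-1. The 2 lower ones were mlt-10, a gene expressed in the epidermis in each moult, at -1.71, and the cuticle collagen rol-6, at -1.44. By sample mlt-10 ranged from 67.2 to 272.4 CPM in SCC-1 cleavage and from 470.4 to 644.1 CPM in TEV control. Of the 9 intestinal markers, elt-7 (-1.02) and pho-1 (-0.47) were lower and the others did not pass, with a summed level of 5024 to 6520 CPM in SCC-1 cleavage, against 5064 to 5253 CPM in TEV control. Of 5 pharynx markers, 2 were higher and 1 lower, with a summed level of 381 to 554.4 CPM in SCC-1 cleavage, against 412.5 to 480.6 CPM in TEV control. Of 4 spermatogenesis genes tested, fer-1, a ferlin gene of sperm, was higher (1.57). The 9 listed spermatogenesis genes summed to 2.53 to 3.39 CPM in SCC-1 cleavage, against 1.46 to 2.14 CPM in TEV control, which did not overlap. The part of these genes in the lectins' values was not tested.

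Of the 13 infection genes tested, 6 were higher in SCC-1 cleavage and 1 was lower, with a median log2 fold change of 0.53. The 6 were clec-4, clec-41, clec-49, clec-52, clec-67 and clec-85, and the lower one was clec-86 at -0.65. The list's summed level was 248.1 to 363.5 CPM in SCC-1 cleavage, against 169.1 to 221.5 CPM in TEV control. Of the 16 immune regulators the FOXO gene daf-16 (0.41) and the SMAD gene sma-3 (0.23) were higher, and dbl-1, a TGF-beta ligand, was lower (-0.22). The gene clec-178, which lies opposite to skn-1 on chromosome IV, had a log2 fold change of -0.29 (SE 0.09, edgeR adjusted p = 0.0337). With the replicate block its adjusted p was 0.0577.

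**Figure D3:**
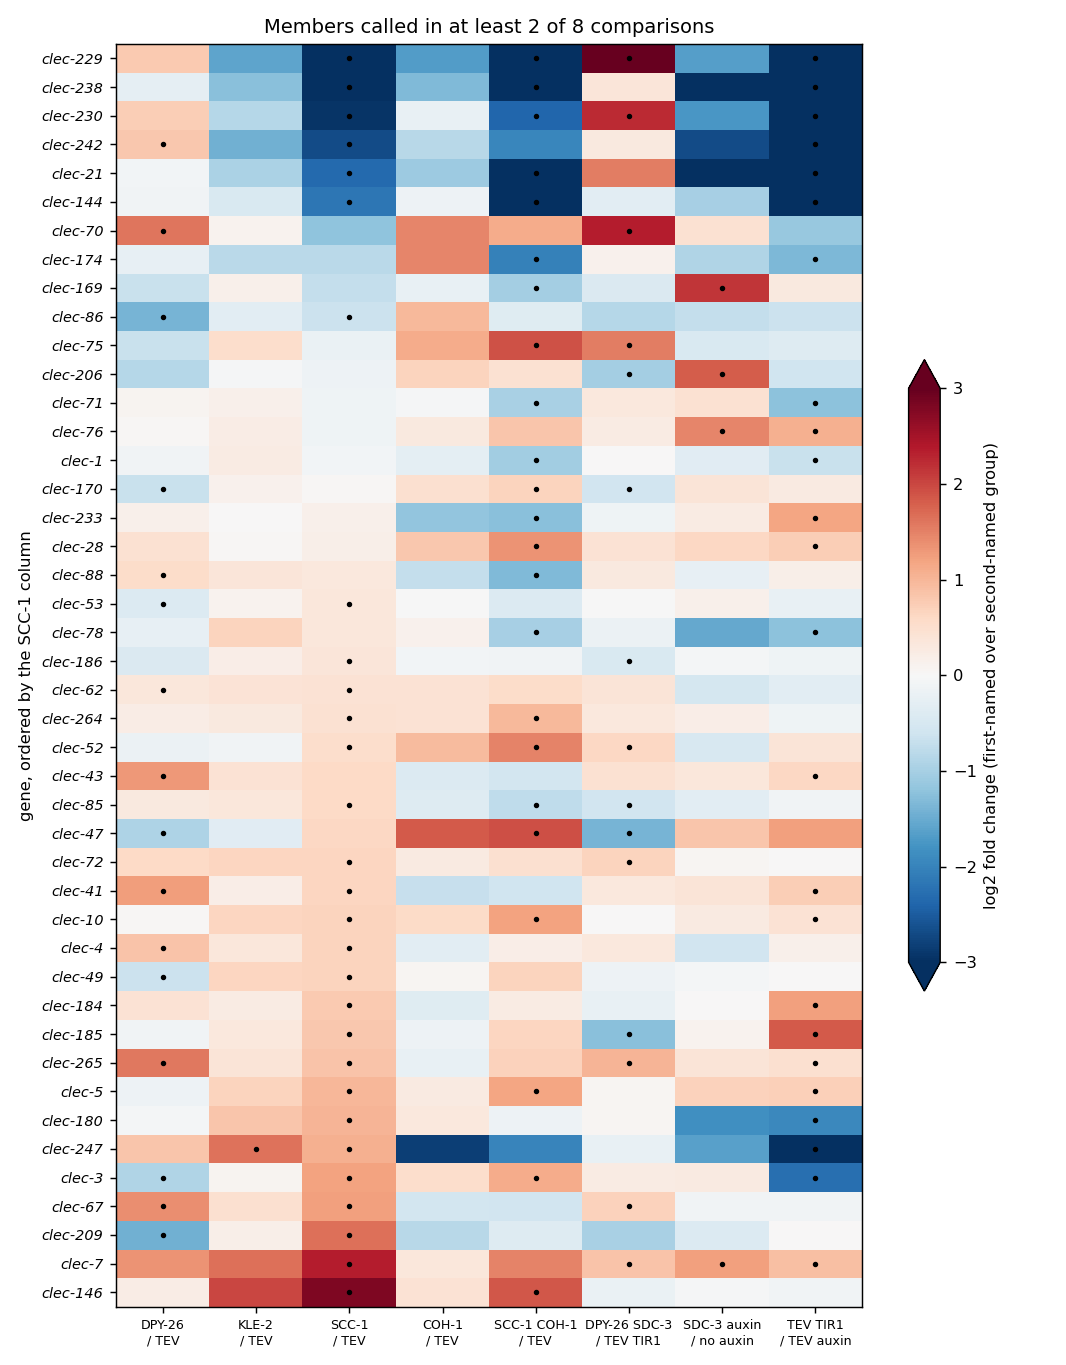
Log2 fold change of the members called in at least 2 of 8 comparisons, with genes in rows ordered by SCC-1 cleavage and comparisons in columns, the first-named group over the second. Red is higher, blue is lower, the colour scale ends at 3 and -3, and a dot marks an adjusted p under 0.05. The 6 rows at the top are the 6 members that fell by more than 2 in SCC-1 cleavage.

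KLE-2 cleavage, which removes condensin II, left 1 member called, beside 1.11% of all genes (0.429% higher and 0.679% lower). It was clec-247 on chromosome V, with 0.921, 0.696, 1.04 and 0.658 CPM in KLE-2 cleavage, against 0.258, 0.360, 0.170 and 0.280 CPM in TEV control. The groups did not overlap, with a log2 fold change of 1.62 (SE 0.29, edgeR adjusted p = 0.0442). The call held without KLE-2 replicate 3, which stood apart, and was lost without any other library of the comparison. At an unadjusted p under 0.05, 13 members were higher and 6 lower, which was 16.4% of the members beside 15.1% of all genes, and DESeq2 called 2 members, beside 7.07% of all genes by that tool.

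Within batch 1 the cleavage groups were also compared with each other. DPY-26 cleavage differed from KLE-2 cleavage in 10 members, 3 higher and 7 lower, beside 7.03% of all genes (5.09% higher and 1.95% lower). Of autosomal genes 1.47% were higher and 2.28% lower. DESeq2 called 22 members, beside 16.4% of all genes by that tool. The higher ones were clec-242 (2.24), clec-265 (1.20) and clec-41 (1.06), and the 3 most reduced were clec-204 (-1.98), clec-146 (-1.77) and clec-205 (-1.67). This count was 14 without KLE-2 replicate 3, 0 without KLE-2 replicate 1, and 2 or 3 without any 1 of the DPY-26 samples. Between SCC-1 and KLE-2 cleavage no member was called, beside 0.0% of all genes. At an unadjusted p under 0.05, 7 were higher and 4 lower, which was 9.48% of the members beside 5.67% of all genes. DESeq2 called 4, beside 0.865% of all genes by that tool.

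COH-1 cleavage in batch 2, set against TEV control, had no called member by edgeR, beside 0.00715% of all genes (1 of 13982). With the replicate number as a block edgeR called no member either. At an unadjusted p under 0.05, 10 members were higher and 11 lower, which was 18.1% of the members beside 6.34% of all genes. A log2 fold change beyond 1 in either direction was seen in 11.2% of the members, beside 2.66% of all genes. DESeq2 called 5, beside 0.858% of all genes by that tool. Of the 5, clec-47 and clec-52 were higher. For clec-47 the samples had 14.3, 15.8 and 21.3 CPM in COH-1 cleavage, against 4.14, 6.59 and 3.69 CPM in TEV control, without overlap (log2 fold change 1.83, SE 0.27, edgeR adjusted p = 0.204). For clec-52 they had 28.3, 24.3 and 25.2 CPM in COH-1 cleavage, against 15.1, 12.9 and 11.9 CPM in TEV control (log2 fold change 0.96, SE 0.14, edgeR adjusted p = 0.204). The lower ones by DESeq2 were clec-51, clec-209 and clec-247, with log2 fold changes of -0.64, -0.83 and -2.83 by edgeR. The paper reports far more genes changed by COH-1 cleavage than either tool called here, most of them by very small amounts. It used DESeq2 with its own gene filters, among them the removal of genes that oscillate in development. Such genes were kept here, so the counts are not like for like.

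Cleavage of SCC-1 and COH-1 together had 32 called members against TEV control, 18 higher and 14 lower. Among all genes 20.9% were called (10.2% higher and 10.7% lower), against 27.6% of the members, whose median log2 fold change was 0.21 beside 0.01 over all genes. The members' median was 0.10 without TEV control replicate 2 and 0.29 without TEV control replicate 3. The groups did not overlap in 54 members, 46.6% of them, beside 42.7% of all genes. Without SCC-1 and COH-1 replicate 1 or 3, 12 and 13 members were called, and without replicate 2, 20 were.

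Of the 6 members most reduced in SCC-1 cleavage, 5 were called lower here too. For clec-230 the samples had 4.63, 8.86 and 3.34 CPM in the double cleavage, against 18.7, 50.04 and 18.8 CPM in TEV control (log2 fold change -2.38, SE 0.52, edgeR adjusted p = 0.0249). The change was -1.75 without TEV control replicate 2, and the call was lost without double cleavage replicate 1 or 3. For clec-21 they had 0.169, 0.390 and 0.109 CPM in the double cleavage, against 2.45, 2.52 and 1.95 CPM in TEV control (log2 fold change -3.41, SE 0.39, edgeR adjusted p = 0.00527). The changes of clec-238, clec-229 and clec-144 were -3.92, -3.46 and -3.13, and clec-242 did not pass (-1.96, edgeR adjusted p = 0.0999). Summed over these 6 members the level was 3.74 to 10.7 CPM in the double cleavage, against 26.3 to 60.2 CPM in TEV control. Over the same batch mlt-10 was lower by 3.38 and rol-6 by 2.17 on the log2 scale, the 2 called of the 8 moult markers, whose summed level was 1575 to 2341 CPM in the double cleavage, against 2054 to 4707 CPM in TEV control. Of 7 germline marker genes 4 were lower (glh-1, glp-1, pgl-1 and rec-8), with a summed level of 152.9 to 183.1 CPM in the double cleavage, against 245.4 to 365.2 CPM in TEV control. Of the 5 pharynx markers, 2 were higher and 1 lower, with a summed level of 765.3 to 1105 CPM in the double cleavage, against 613.9 to 711.9 CPM in TEV control. The sperm gene fer-1 was higher (1.23) here as well. The 9 listed spermatogenesis genes summed to 2.198 to 2.98 CPM in the double cleavage, against 1.61 to 2.22 CPM in TEV control, with overlap. The part of any of these in the members' values was not tested.

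An abundant member was also lower. The gene clec-1, ranked the third by mean TPM, had 57.8, 98.2 and 81.1 CPM in the double cleavage, against 130, 158 and 203 CPM in TEV control, with no overlap (log2 fold change -1.05). The immune list gave no single direction, with clec-52 (1.49) and clec-60 (1.41) higher, clec-71 (-0.98) and clec-85 (-0.75) lower, and a median of -0.15. All of these are known from infection with Staphylococcus aureus or as reporters of immune pathways. Of the regulators, daf-16 (0.82) and vhp-1 (0.37) were higher.

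Among the members that rose, clec-28 had 6.25, 5.64 and 5.62 CPM in the double cleavage, against 2.26, 2.32 and 2.34 CPM in TEV control (log2 fold change 1.34, SE 0.14, edgeR adjusted p = 0.00477). Its neighbour clec-24 had 1.47, 1.38 and 1.42 CPM in the double cleavage, against 0.556, 0.437 and 0.510 CPM in TEV control (log2 fold change 1.49, SE 0.20, edgeR adjusted p = 0.00706). Both lie in the largest cluster of the family, 13 annotated clec genes on chromosome V between 16843241 and 16869840, of which 11 were members. In the double cleavage 5 of the 11 were called higher and none lower, and all 11 had log2 fold changes above 0, between 0.17 and 1.49 with a median of 0.84. Of all members 58.6% were above 0 in this comparison, and of all genes 50.7%. All 11 were also above 0 in SDC-3 degradation with auxin (median 0.63, none called) and in the TIR1 control over the TEV auxin control (median 0.59, 1 called). In DPY-26 cleavage 4 of the 11 were above 0, with a median of -0.07 and none called. The number above 0 was 10 in SCC-1 cleavage, 8 in KLE-2 cleavage, 9 in COH-1 cleavage and 8 in the combined group of batch 3, and 4 in DPY-26 against KLE-2 cleavage. Over all members the share above 0 was 69.0% in SCC-1, 70.7% in KLE-2 and 52.6% in COH-1 cleavage. It was 58.6% in SDC-3 degradation, 52.6% in the TIR1 comparison and 56.9% in the combined group. In DPY-26 cleavage it was 43.1%, and 35.3% against KLE-2 cleavage. Over all genes these shares lay between 47.0% and 56.1%, and the cluster was not tested against them. Outside this cluster clec-47 was higher by 1.94, clec-75 by 1.899, clec-146 by 1.87 and clec-52 by 1.49 on the log2 scale.

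**Figure D4:**
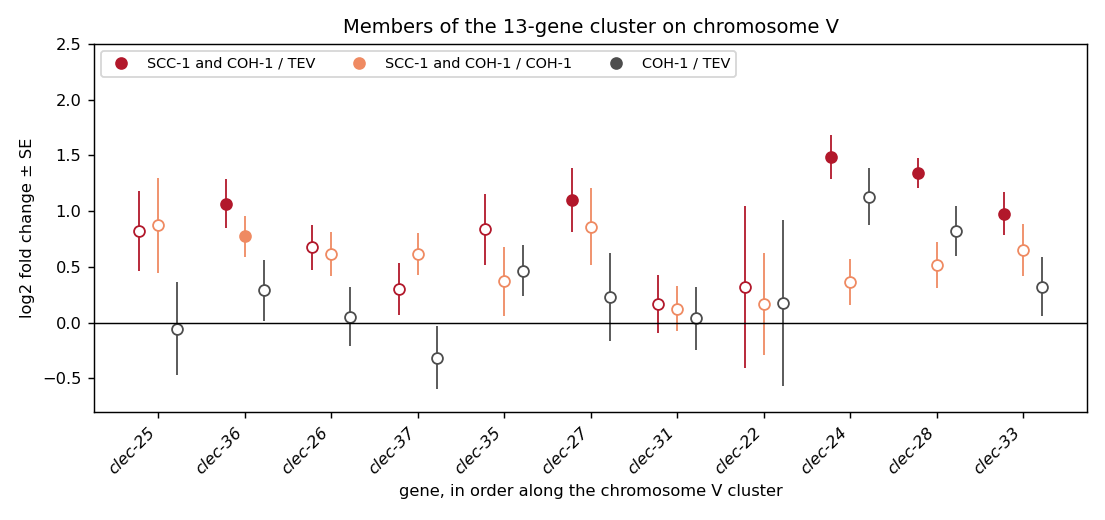
Log2 fold change with its standard error for the 11 members in the chromosome V cluster of 13 clec genes, in their order along the chromosome. Red is double cleavage over TEV control, orange is double cleavage over COH-1 cleavage, grey is COH-1 cleavage over TEV control, and filled points have an adjusted p under 0.05. All 11 red points lie above 0, and 5 are filled.

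Against COH-1 cleavage the double cleavage differed in 18 members, 10 higher and 8 lower, beside 9.64% of all genes (4.28% higher and 5.36% lower). The lower ones included clec-174 (-3.50), clec-144 (-2.97), clec-238 (-2.59), clec-21 (-2.31) and clec-230 (-2.16), and the higher ones clec-146 (1.43), clec-139 (1.41), clec-15 (1.30) and clec-265 (0.93). For clec-174 the samples had 0.414, 0.638 and 1.34 CPM in the double cleavage, against 4.45, 6.25 and 15.5 CPM in COH-1 cleavage, without overlap. Without COH-1 replicate 3 its change was -2.80 and was not called, and the call was lost without any 1 of the double cleavage samples as well. The change of clec-238 was -3.95 without double cleavage replicate 2. In the chromosome V cluster clec-36 was the only called member. Of the moult markers 4 of 8 were lower, mlt-10 by 2.34 and rol-6 by 2.06, and their summed level was 1575 to 2341 CPM in the double cleavage, against 3309 to 4236 CPM in COH-1 cleavage. The count was 0 without double cleavage replicate 1, 1 without double cleavage replicate 3 or COH-1 replicate 3, 10 and 12 without double cleavage replicate 2 and COH-1 replicate 2, and 31 without COH-1 replicate 1.

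SCC-1 cleavage in batch 1 and the double cleavage in batch 2 share no sample. Of 11 and 14 members called lower, 5 were shared (clec-229, clec-230, clec-238, clec-21 and clec-144), 45.5% and 35.7% of the lists. Of 29 and 18 called higher, 6 were shared (clec-3, clec-5, clec-10, clec-52, clec-146 and clec-264), 20.7% and 33.3% of the lists. Whether these shares differ from those over all genes was not tested.

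The last comparison was between control groups of batch 3, the TEV TIR1 control with auxin over the TEV control with auxin, which differ in the TIR1 transgene. Here 27 members were called, 12 higher and 15 lower, beside 14.3% of all genes (4.41% higher and 9.86% lower), and the median log2 fold change was 0.03 over both the members and all genes. In 47 members the groups did not overlap, 40.5% of them beside 32.3% of all genes. The count was 17 without TIR1 control replicate 2 and 13 without TEV auxin control replicate 2.

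All 6 members most reduced in SCC-1 cleavage were among those called lower. For clec-230 the samples had 0.629, 0.203 and 0.752 CPM in the TIR1 control, against 6.61, 15.3 and 6.33 CPM in the TEV auxin control (log2 fold change -4.10, SE 0.49, edgeR adjusted p = 0.00104). For clec-229 there were 3 reads over the TIR1 control group and 57 over the TEV auxin group, a ratio of 0.0331 per read sequenced, with a counting interval of 0.00663 to 0.102 (95%, exact, counting error only). For clec-242 there was 1 read over the TIR1 control group and 21 over the TEV auxin group. Their summed level was 0.372 to 1.11 CPM in the TIR1 control, against 12.03 to 22.8 CPM in the TEV auxin control. In the combined group of the same batch it was 2.37 to 4.95 CPM, and clec-229 and clec-230 were called higher there than in the TIR1 control, clec-229 with 28 reads against 3 (ratio 11.9, interval 3.67 to 61.0) and clec-230 by 2.24 on the log2 scale. The call of clec-229 was lost without the combined group's or the TIR1 control's replicate 2 or 3, and that of clec-230 without the combined group's replicate 3 or TIR1 control replicate 2. In the SDC-3 degron strain of batch 4 it was 0.997 to 2.60 CPM with auxin and 1.40 to 15.96 CPM without.

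Of the moult markers, 1 was higher and 4 lower in the TIR1 control, with a summed level of 1621 to 3323 CPM, against 3856 to 5399 CPM in the TEV auxin control. By sample mlt-10 was at 9.33 to 47.6 CPM in the TIR1 control, against 353 to 524 CPM in the TEV auxin control. In batch 4, where none of the 8 passed, mlt-10 was at 12.3 to 58.6 CPM with auxin, against 135.5 to 367.6 CPM without. The part of these genes in the lectins' values was not tested.

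**Figure D5:**
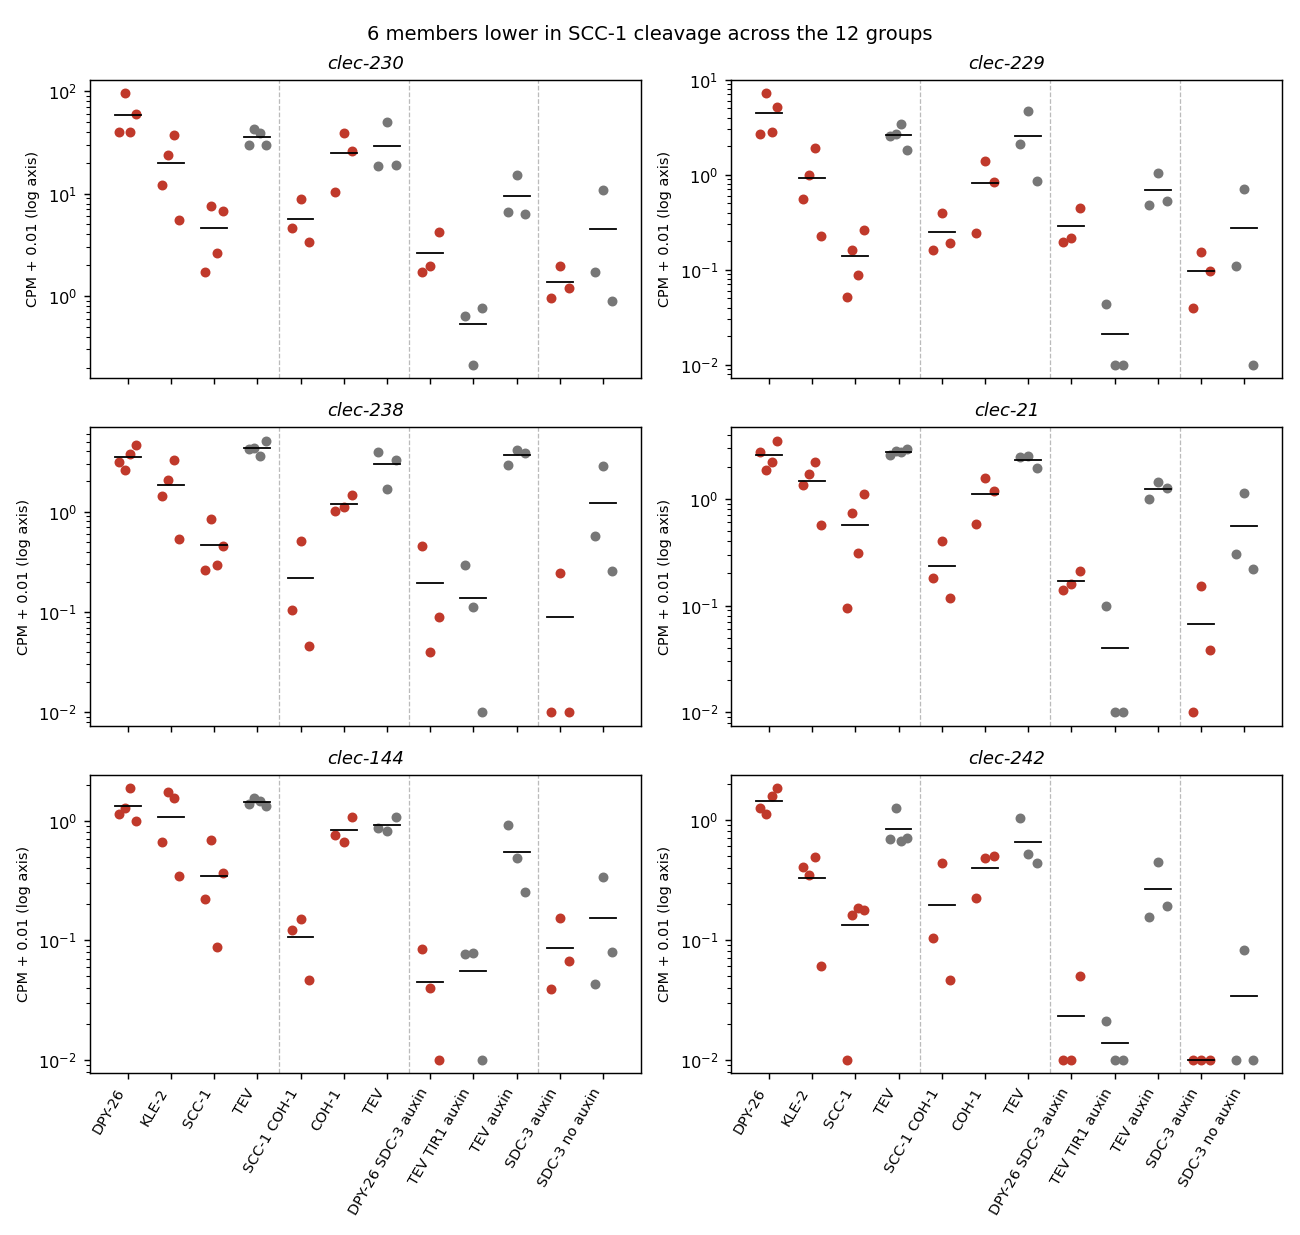
CPM plus 0.01, on log axes, of clec-230, clec-229, clec-238, clec-21, clec-144 and clec-242 in each sample of the 12 groups. Red points are cleavage groups and SDC-3 degron groups with auxin, grey points are control groups, horizontal lines are group means, dashed lines separate the 4 batches, and points at the bottom of an axis are samples without a read. The SCC-1 samples lie below the TEV control samples of batch 1 in all 6 genes, and the TIR1 control samples lie below the TEV auxin samples.

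These 6 genes were grouped after their values had been seen. Over the 40 samples, taking each sample's log2 level as its deviation from its batch mean, clec-230 was most like clec-21 (r = 0.91), clec-229 (r = 0.89) and clec-238 (r = 0.84). For clec-229 the nearest after clec-230 were clec-242 (r = 0.84) and clec-21 (r = 0.82). For clec-265 they were clec-41 (r = 0.74), clec-4 (r = 0.72) and clec-17 (r = 0.69). The points share batches and libraries, and these values describe the samples only.

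More abundant members moved in the TIR1 comparison too. For clec-180 the samples had 102, 41.2 and 46.3 CPM in the TIR1 control, against 260, 251 and 222 CPM in the TEV auxin control, far apart (log2 fold change -1.94). For clec-185 they had 1.27, 1.82 and 1.15 CPM in the TIR1 control, against 0.291, 0.388 and 0.486 CPM in the TEV auxin control (log2 fold change 1.85). The double cleavage of batch 2 and the TIR1 comparison share no sample, and of their 14 and 15 members called lower 9 were shared, 64.3% and 60% of the lists (clec-1, clec-144, clec-174, clec-21, clec-229, clec-230, clec-238, clec-71 and clec-78). Here too shared calls were not counted over all genes, so the overlap is not a result about the family.

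Some members share reads with other genes or could do so. Of the 116 members 28 overlap another annotated gene, 8 of them on the same strand (among these clec-60, clec-85 and clec-88) and 20 on the opposite strand only, and 17 of the 28 were called in at least 1 comparison. The values of the 8 are uncertain to that extent. The libraries were stranded. For the 20 the same holds only if the quantification did not use strand, which was not checked.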

How the data were processed

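RNA of whole L3 larvae was sequenced from 40 samples. Per the labels and the study's methods, the authors made stranded mRNA libraries, trimmed reads with cutadapt 2.5 and quantified transcripts with Salmon, and deposited 1 table per sequencing lane with estimated counts (not whole numbers) and TPM. The submitters' notes name Salmon 1.5.2, while the paper's methods name another Salmon version and a WormBase transcriptome release, and which of them made the deposited tables is not stated. STAR 2.7.9a is named in the submitters' notes and its output was not used here. Estimated counts were summed over lanes and over the transcripts of a gene, with a WBcel235 annotation, and rounded to whole numbers. Of 42938 transcripts, 30905 matched a gene by name, 11992 by sequence name and 41 matched none (at most 0.0128% of a sample's reads), giving 19934 genes. Genes with 10 or more reads in at least 20 of 40 samples were kept. TPM was used only for levels between genes, as a sum over a gene's transcripts.

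Each comparison was fitted on its own groups with edgeR 4.0.16 (quasi-likelihood test, TMM factors over the 40 samples, R 4.3.3) and Benjamini-Hochberg adjustment over 13982 genes at 0.05. The fitting step was tested on simulated data. Lists of marker genes for intestine, moult and epidermis, germline, pharynx, muscle, neurons, coelomocytes and spermatogenesis were written from general knowledge. Neither of 2 coelomocyte genes passed in any comparison. Of 9 spermatogenesis genes 4 were tested, and all 9 summed to at most 3.39 CPM in any sample. Summed levels of a list include its genes that were not tested. Summaries used Python 3.11.15, numpy 2.4.6, pandas 2.3.3 and matplotlib 3.10.9. Alternatives were DESeq2 1.42.0, DESeq2-type size factors, TMM factors from autosomal genes, no read minimum, 1 fit of all 40 samples, the replicate number as a block, leaving out each library, and leaving out the extra lane tables of TIR1 control replicate 1. Those extra tables were taken as the same library and summed.

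The members and lists were chosen with earlier results of these data known. Members named with values were, in each comparison, the called members with up to 6 of the largest fold changes in each direction, the 10 with the highest mean TPM, the infection list, all members on the X chromosome and clec-178. Other members named, such as clec-5, clec-51, clec-57, clec-160, clec-170 and those in lists of shared or stable calls, were chosen after their values were seen.

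Same-numbered samples deviated together in every pair (correlation over 0.1) for SCC-1 cleavage (0.226, 0.16, 0.108 and 0.122) and COH-1 cleavage (0.488, 0.652 and 0.602). They also did so for the SDC-3 degron (0.113, 0.361 and 0.349), the TIR1 comparison (0.463, 0.113 and 0.295) and double against COH-1 cleavage (0.477, 0.29 and 0.268). The pairing comes from replicate numbers in the labels. For SCC-1 cleavage these are the numbers in the sample titles, which do not match the names of the deposited tables in every case, so its block rests on the titles. Each p-value sets a difference between groups against the spread between these samples, and that spread was estimated in part over all genes. Protein identity between members was not checked, no gene sequence was used here, and Salmon may split reads between near-identical members.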

Additional observations from a re-analysis of the deposited data

Results flagged for a closer look

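Within the 4-sample groups of batch 1, 1 sample stood far from the other 3 in 16 of 240 sets of a gene and a group, by Dixon's criterion. Chance alone gives such a sample in about 1 in 20 sets. All values are CPM.

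In DPY-26 cleavage, replicate 4 stood above the others for clec-169 (6.955, others 2.01 to 2.651), clec-24 (0.6237, others 0.1658 to 0.2149), clec-60 (10.13, others 1.385 to 2.507), clec-71 (12.4, others 4.538 to 5.305) and clec-75 (0.4914, others 0.1036 to 0.1549). Replicate 2 of the same group stood above the others for clec-85 (30.52, others 14.69 to 15.96) and below them for clec-43 (4.323, others 9.227 to 9.753). In KLE-2 cleavage, replicate 3 stood above the others for clec-266 (0.9244, others 0.3035 to 0.3579), clec-66 (21.02, others 9.422 to 10.74) and clec-85 (34.68, others 13.69 to 16.09).

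In SCC-1 cleavage, clec-242 had 0.0 in replicate 1 (others 0.1508 to 0.1727) and clec-245 had 0.2982 in replicate 3 (others 0.2011 to 0.2107). In TEV control of batch 1, clec-24 was low in replicate 4 (0.1865, others 0.3389 to 0.3443), clec-242 was high in replicate 2 (1.25, others 0.6505 to 0.6994), and replicate 3 was high for clec-266 (0.3253, others 0.2487 to 0.2582) and clec-83 (47.27, others 41.9 to 42.21).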

How the results depend on the processing

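Of the alternative fits, 94 kept the number of called clec genes within 1.5 times and 50 moved it further. The members' median log2 fold change stayed within the spread between replicates in 131 fits and moved beyond it in 13. For the named genes, 930 fits kept the call, 218 lost it and 0 turned the direction. DESeq2 called 2 members in KLE-2 cleavage, 5 in COH-1 cleavage, 16 with SDC-3 degradation, 22 in DPY-26 against KLE-2 cleavage and 4 in SCC-1 against KLE-2 cleavage. With 1 fit of all 40 samples the counts were 5 (KLE-2 cleavage), 2 (COH-1 cleavage), 7 (DPY-26 cleavage with the SDC-3 degron), 16 (SDC-3 degradation), 9 (double against COH-1 cleavage) and 39 (DPY-26 against KLE-2 cleavage). With the replicate number as a block they were 0 (KLE-2 cleavage), 31 (DPY-26 cleavage with the SDC-3 degron, 20 higher and 11 lower) and 14 (SDC-3 degradation), and in the remaining comparisons 30 (DPY-26 cleavage), 48 (SCC-1 cleavage), 0 (COH-1 cleavage), 38 (double cleavage), 29 (TIR1 control), 26 (double against COH-1 cleavage), 8 (DPY-26 against KLE-2 cleavage) and 0 (SCC-1 against KLE-2 cleavage). Same-numbered samples did not all deviate together for DPY-26 cleavage (-0.261, 0.183, 0.13 and 0.154), KLE-2 cleavage (-0.147, 0.31, -0.204 and 0.119), double cleavage (0.595, 0.0799 and 0.336) and the combined group (0.703, 0.511 and 0.0841). For DPY-26 and KLE-2 cleavage the numbers are not taken as pairs. In batches 2 and 3 samples of the same numbers passed this check in other comparisons. A figure legend of the paper speaks of replicate batches for the COH-1 RNA-seq. Read totals of batch 2 fell from replicate 1 to 3, from 49867075 to 23700267 in TEV control and from 46170898 to 25269584 in double cleavage. Samples of batches 2 and 3 may therefore be pairs, and the main counts of double cleavage and the combined group do not use pairing. Leaving out each library in turn gave 13 to 34 called members in DPY-26 cleavage, 0 to 1 in KLE-2 cleavage, 25 to 36 in SCC-1 cleavage, 0 in COH-1 cleavage, 12 to 38 in double cleavage, 7 to 19 in the combined group, 0 to 12 with SDC-3 degradation, 13 to 25 in the TIR1 control, 0 to 31 in double against COH-1 cleavage, 0 to 14 in DPY-26 against KLE-2 cleavage and 0 in SCC-1 against KLE-2 cleavage. Fewer samples enter those fits, and otherwise the cause was not tested. Depth limits the 28 members with a mean under 1 TPM, and clec-229 had 2 to 12 reads in each SCC-1 library.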
